A study of Mus musculus with 12 samples.

Results

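The HoxC cluster is one of the mammalian clusters of Hox genes, which encode homeodomain transcription factors. In the mouse it holds Hoxc13, Hoxc12, Hoxc11, Hoxc10, Hoxc9, Hoxc8, Hoxc6, Hoxc5 and Hoxc4, in that order along chromosome 15. These 9 genes, taken by symbol from the 55573 genes of the deposited tables, are described here across 4 groups of mouse embryonic fibroblasts. The set was picked on measured values, because Hoxc11 had counts in every Fadd/Mlkl knockout library and none where Fadd was put back. That comparison is therefore given as a description for the 9 genes, and no call in it is read as a result. All 9 genes had counts in the libraries and all 9 passed the filter on low counts, which left 16396 genes to test.

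Hox genes give cells of the embryo their position along the body axis and along the limbs. Within a cluster, genes at the Hoxc4 end are used earlier and further forward in the embryo, and genes at the Hoxc13 end later and nearer the tail. Fibroblasts keep much of this pattern after they leave the embryo, so their Hox genes often reflect the body site they came from. In mouse limbs Hoxc10 and Hoxc11 are known mainly from the hindlimb, and Hoxc13 from hair follicles and nails.

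The study used mouse embryonic fibroblasts immortalised with the large T antigen of SV40, a viral protein that keeps cells dividing. The cells were Fadd-/-Mlkl-/- or Casp8-/-Mlkl-/-. FADD links death receptors to the protease caspase-8, and MLKL carries out necroptosis. By the labels all 4 groups share the Mlkl-/- genotype. Each line received an empty vector (called here Fadd/Mlkl knockout and Casp8/Mlkl knockout) or a vector for the missing gene (Fadd put back and Casp8 put back). Every group has 3 libraries of total RNA, taken from untreated cells 24 h after plating. The labels name 3 independent cultures per group but not how many embryos each line came from. The p-values therefore measure the spread between cultures within a group, pooled over the 4 groups and both lines. They do not measure a spread between lines, and the line cannot be told apart from the embryo or cells it started from.

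Depth ran from 33918359 to 59388559 counts per library. Fadd and Casp8 followed the labels, with 2 to 10 counts of Fadd in the Fadd/Mlkl knockout libraries against 792 to 1224 with Fadd put back. Casp8 had 354 to 537 counts in the Casp8/Mlkl knockout libraries against 3479 to 9600 with Casp8 put back. Replicate 1 with Casp8 put back had the 3479 counts, against 9600 and 8852 in the other libraries of that group. Mlkl RNA was present in every group, at means of 6.37 to 10.6 CPM (counts relative to the library's total, scaled by TMM), and counts over the whole gene do not show whether these reads lie in the deleted part. Of 10 fibroblast markers, 7 or 8 had a mean of at least 1 TPM (a level per transcript length, the share of the library's transcripts) in each group, and their summed TPM was 1140 to 1630 in Fadd/Mlkl knockout, 1700 to 1870 with Fadd put back, 2540 to 3330 in Casp8/Mlkl knockout and 2490 to 3690 with Casp8 put back. Col1a2, a defining collagen of fibroblasts, was nearly absent from Fadd/Mlkl knockout at 0.07 to 0.26 TPM, against 14.1 to 51.8 TPM with Fadd put back (3 libraries each; log2 change -7.70, SE 0.779, edgeR adjusted p = 0.000557), and had means of 584 and 567 TPM in the Casp8 line. Thy1 was at 0 in all libraries of 3 groups, the exception being Casp8/Mlkl knockout. The summed TPM of epithelial markers was 0.38 to 2.05 in Fadd/Mlkl knockout, 2.68 to 15.8 with Fadd put back and 1.68 to 6.55 in the Casp8 line, mostly from Krt19. It stayed at or below 1.99 for leukocyte, 0.15 for endothelial and 0.67 for muscle markers, while the neural list, led by Nes, ran from 14.3 to 53.8. Of that list Sox2 was at 0 in the Fadd line and at 4.59 to 12.16 TPM in the Casp8 line, and the part that these differences between and within the lines have in the results below was not tested.

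The replicate 1 libraries of the Casp8 line stood apart in their Hox genes. Hoxb9 had 618 counts in replicate 1 of Casp8/Mlkl knockout and 31 in replicate 1 of Casp8 put back, against 0 to 5 in the other 4 libraries of that line. Hoxb13 had 125 and 22 counts in the same libraries, against 0 or 1 in the others. Every Fadd-line library had 1178 to 1757 counts of Hoxb9 and 322 to 1963 of Hoxb13. Results on the Casp8 line are therefore also given without both replicate 1 libraries, an alternative added after the values were seen.

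The 9 genes lie on the plus strand at chr15:102921103-103036852 (mm10), a span of 115.8 kb with Hoxc13 at the left end. Hoxc11 (chr15:102954427-102957708) sits 15.8 kb after Hoxc12 and 9.09 kb before Hoxc10. Hotair, a long noncoding RNA known for binding Polycomb complexes, lies on the minus strand between Hoxc12 and Hoxc11 at chr15:102944062-102947730. The annotated Hoxc5 gene starts inside Hoxc10, and both share 166 exon bases, which is 8.7% of Hoxc10 and 5.37% of Hoxc5. Reads from that stretch can be split between them, and the counts of Hoxc5 and Hoxc10 are uncertain to that extent. The other 7 genes share no exon base with another gene of the cluster.

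Hoxc11 belongs to a paralogous group with Hoxa11 and Hoxd11, and reads can only be assigned if these genes differ in sequence. The longest run of identical bases between Hoxc11 and any Hox gene outside the cluster was 20 bases, shared with Hoxa11, and within the cluster it was 15 bases. The 3 sequences below are the 100 coding bases in which Hoxc11 and Hoxa11 are most alike, with the best match of Hoxd11, each 5′ to 3′ on the gene's own strand. Capitals mark bases that differ from Hoxc11, which are 10 in Hoxa11 and 23 in Hoxd11. The stretches are chr15:102956477-102956576 (plus strand), chr6:52243485-52243584 (minus strand) and chr2:74683914-74684013 (plus strand) in mm10.
Hoxc11: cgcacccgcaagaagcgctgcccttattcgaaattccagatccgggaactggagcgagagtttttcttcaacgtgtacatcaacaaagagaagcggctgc
Hoxa11: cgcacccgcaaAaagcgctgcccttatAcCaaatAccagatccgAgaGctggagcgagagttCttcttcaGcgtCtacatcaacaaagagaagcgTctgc
Hoxd11: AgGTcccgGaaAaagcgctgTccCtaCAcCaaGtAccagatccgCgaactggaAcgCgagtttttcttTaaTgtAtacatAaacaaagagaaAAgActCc
The differences are not evenly spread: near its end Hoxa11 has 20 bases in a row identical to Hoxc11, the length of the longest run given above.

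Summed over the 9 genes, HoxC RNA was 17.4 ± 2.0 TPM in Fadd/Mlkl knockout, 14.6 ± 0.709 with Fadd put back, 14.1 ± 2.59 in Casp8/Mlkl knockout and 12.9 ± 1.03 with Casp8 put back (SD, n = 3 each). Both lines used the cluster from end to end, but with different leading genes. In the Fadd line Hoxc6, a gene of the forward trunk, was highest in all 6 libraries. The highest gene of the Casp8 line was Hoxc10 in 3 libraries, Hoxc11 in 2 and Hoxc13 in 1.

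In Fadd/Mlkl knockout the mean TPM fell in the order Hoxc6, Hoxc13, Hoxc11, Hoxc9, Hoxc4, Hoxc10, Hoxc12, Hoxc8 and Hoxc5, from 4.77 to 0.543. Only Hoxc6 and Hoxc13, Hoxc10 and Hoxc12, and Hoxc12 and Hoxc8 were neighbours in that order whose libraries did not overlap. With Fadd put back the order was Hoxc6, Hoxc10, Hoxc13, Hoxc12, Hoxc9, Hoxc4, Hoxc5, Hoxc8 and Hoxc11, from 3.58 to 0, and the pairs that overlapped were Hoxc13 with Hoxc12 and Hoxc9 with Hoxc4. Both groups of the Casp8 line had the order Hoxc10, Hoxc11, Hoxc9, Hoxc6, Hoxc13, Hoxc4, Hoxc12, Hoxc5 and Hoxc8. It ran from 3.35 to 0.347 in Casp8/Mlkl knockout, where all neighbouring genes overlapped, and from 3.33 to 0.227 with Casp8 put back. There the gaps between Hoxc11 and Hoxc9, Hoxc4 and Hoxc12, and Hoxc5 and Hoxc8 held in all libraries.

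**Figure D1:**
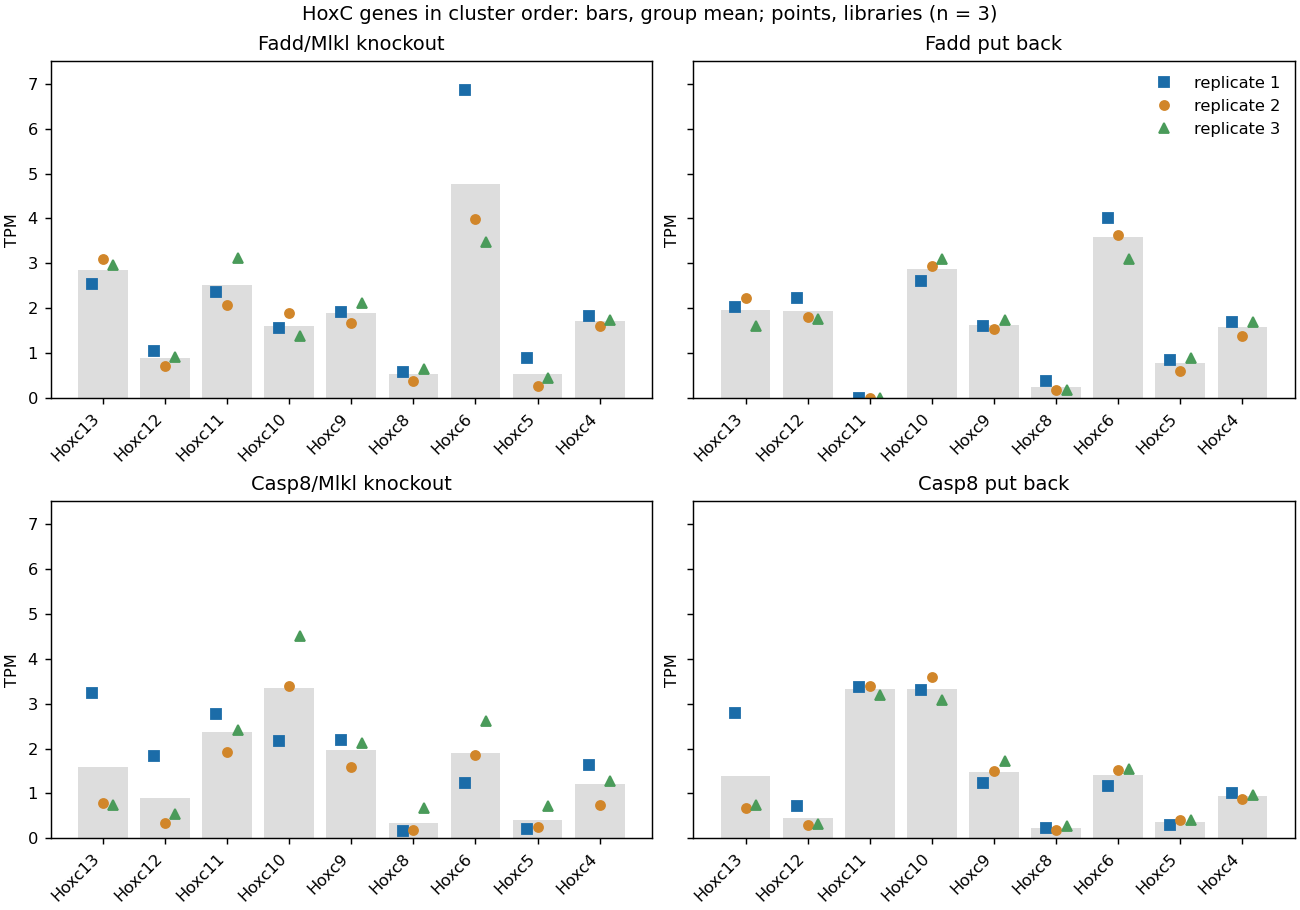
TPM of the 9 HoxC genes in cluster order (x axis) in the 4 groups, with bars for the group mean and 1 point per library (n = 3). Hoxc11 is at 0 in all 3 libraries with Fadd put back, and Hoxc13 and Hoxc12 are higher in replicate 1 of the Casp8 line than in its other libraries.

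Hoxc11, a posterior gene that acts with its paralogs in kidney and hindlimb development, had 474, 362 and 482 counts in the Fadd/Mlkl knockout libraries. With Fadd put back it had 0, 0 and 0. The Casp8 line had 364, 267 and 220 counts in the knockout libraries and 495, 568 and 460 with Casp8 put back. Hoxc11 was thus read in 9 of 12 libraries, and the 3 without it are the 3 in which Fadd was put back.

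As TPM, the levels of Hoxc11 were 2.37, 2.08 and 3.13 in Fadd/Mlkl knockout, 2.77, 1.92 and 2.42 in Casp8/Mlkl knockout, and 3.37, 3.38 and 3.20 with Casp8 put back. On this scale the put-back libraries of the Casp8 line were the highest and did not overlap the other groups, while in CPM they overlapped Fadd/Mlkl knockout. The 3 libraries with Fadd put back hold 129894422 counts in all, and a count of 0 in them allows up to 0.0223 CPM, taken as 3 counts over the group. Against that floor Hoxc11 was at least 375-fold higher in Fadd/Mlkl knockout (1318 counts) and at least 438-fold higher with Casp8 put back (1523 counts). These bounds cover counting error only, and they describe the values that chose the set. In bulk RNA, fewer cells with a transcript and less of it per cell cannot be told apart.

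On the left of Hoxc11, Hoxc12, another posterior gene, had 97, 58 and 64 counts in Fadd/Mlkl knockout and 143, 105 and 116 with Fadd put back. The direction is the opposite of that of Hoxc11, and the groups did not overlap. Hoxc12 of the Casp8 line had 109, 22 and 23 counts in the knockout and 48, 24 and 21 with Casp8 put back, so replicate 1 was the highest library of both groups. Hotair had 44, 38 and 33 counts in Fadd/Mlkl knockout and 9, 5 and 5 with Fadd put back. Its libraries also did not overlap there, and unlike Hoxc11 it was not at 0. Hotair of the Casp8 line had 4, 22 and 24 counts in the knockout and 15, 35 and 42 with Casp8 put back, with replicate 1 the lowest of both groups. The sources used here do not say whether counting used strand, so Hotair reads may include RNA from the opposite strand.

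On the right, Hoxc10, a gene of the lumbar region and hindlimb, had 295, 308 and 200 counts in Fadd/Mlkl knockout and 345, 351 and 422 with Fadd put back. The put-back libraries were higher and did not overlap the knockout, as for Hoxc12. In the Casp8 line it had 266.85, 442.95 and 384 counts in the knockout and 455, 567 and 416 with Casp8 put back. These overlapped once scaled for depth, at 9.2 ± 2.69 and 9.19 ± 0.855 CPM (SD, n = 3). The genes annotated on either side of Hoxc11 thus kept reads in the libraries in which Hoxc11 had none. The 4 short noncoding genes annotated around Hotair, and the rows of the microRNA genes Mir196a-2 and Mir615, were at 0 in all 12 libraries.

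**Figure D2:**
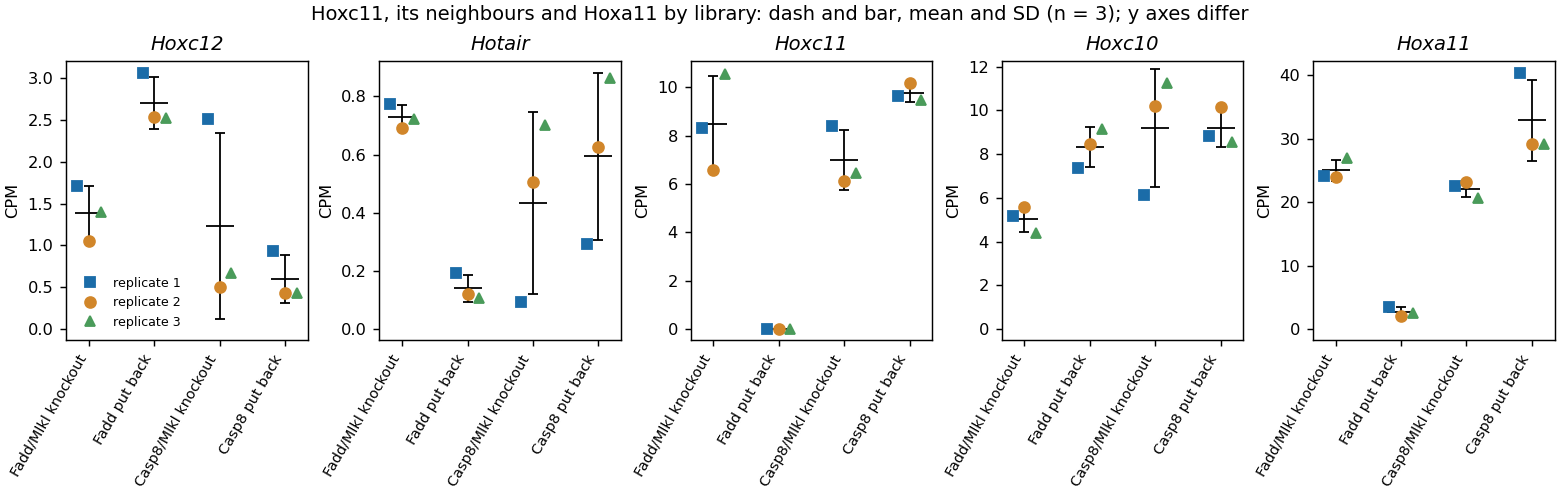
CPM by library of Hoxc12, Hotair, Hoxc11 and Hoxc10, in cluster order, and of Hoxa11, a paralog on another chromosome, with the mean and SD of each group (n = 3; the y axes differ). With Fadd put back Hoxc11 is at 0 and Hoxa11 and Hotair are low, while Hoxc12 and Hoxc10 are higher than in Fadd/Mlkl knockout.

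At the posterior end, Hoxc13, needed for hair and nails, had 630, 668 and 565 counts in Fadd/Mlkl knockout and 359, 353 and 292 with Fadd put back, without overlap. The Casp8 line had 527, 137 and 83 counts in the knockout and 508, 141 and 133 with Casp8 put back. Replicate 1 of both groups was at the level of the Fadd line, and the other 4 libraries were lower.

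In the middle of the cluster, Hoxc9, which patterns the thoracic region, was the steadiest of the genes. Its group means ran from 1.49 ± 0.245 TPM with Casp8 put back to 1.97 ± 0.34 in Casp8/Mlkl knockout (SD, n = 3), and every pair of groups compared overlapped. Hoxc8, a gene of the brachial and thoracic region, was among the lowest, with 117, 66 and 97 counts in Fadd/Mlkl knockout and 57, 24 and 28 with Fadd put back. It had 22, 26 and 64 counts in Casp8/Mlkl knockout and 36, 33 and 39 with Casp8 put back. In CPM Hoxc8 overlapped in each of the 4 comparisons made below, though as TPM the Fadd-line groups separated.

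Hoxc6, a gene of the upper trunk, had 824, 434 and 308 counts in Fadd/Mlkl knockout and 349, 292 and 283 with Fadd put back. Counts in the Casp8 line were 100, 154 and 140 counts in the knockout and 102, 168 and 141 with Casp8 put back. Every Fadd-line library lay above every Casp8-line library in CPM, and replicate 1 of Fadd/Mlkl knockout was the highest of all.

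At the anterior end, Hoxc5 had 265, 74 and 105 counts in Fadd/Mlkl knockout and 175, 118 and 195 with Fadd put back, and Casp8-line libraries had from 25.15 to 100 counts. Hoxc4, the gene of the cluster used furthest forward, had 367, 279 and 265 counts in Fadd/Mlkl knockout and 239, 175 and 245 with Fadd put back. It had 213, 102 and 114 counts in Casp8/Mlkl knockout and 149, 146 and 138 with Casp8 put back. Replicate 1 was again the highest library of Casp8/Mlkl knockout, and the only one of that group within the CPM range of the Fadd line.

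Knockout against put back in the Fadd line compares cells given the empty vector with cells given the Fadd vector. An effect of FADD cannot be told apart from other differences between the cells that received each vector. Of all genes tested, 1.52% were called by edgeR (adjusted p under 0.05); Hoxc11 is among them by the choice of the set, and nothing is read from that call. The bulk libraries of these groups also differ in Col1a2 and in the summed fibroblast and epithelial markers, as given above. Of the 8 other genes, Hoxc13 was higher and Hoxc12 and Hoxc10 lower in the knockout, without overlap in CPM. Among all genes tested 16.5% separated in this way. Hoxc11 also separated, by the choice of the set. The log2 changes of the 8 other genes ran from -0.96 for Hoxc12 and -0.72 for Hoxc10 to 1.16 for Hoxc8. The replicate 1 libraries of the Casp8 line enter the SEs here too, since all groups share the same estimate of spread. Without both, Hoxc13 stayed at 0.66, with SE 0.186 in place of 0.624. Hotair stayed at 2.35, with SE 0.365 in place of 0.662 (edgeR adjusted p = 0.00969 in place of 0.147). That fit, chosen after the values were seen, called 524 of 16864 genes against 250 of 16396 and is a description.

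In the Casp8 line the same comparison was not used to choose the genes. No HoxC gene passed the test in Casp8/Mlkl knockout against Casp8 put back: 0 of 9 were called by edgeR, 0 had an unadjusted p under 0.05, and DESeq2 and limma-voom called 0. Among all genes 0.0061% were called, a single gene, Casp8 itself (log2 change -3.63, SE 0.325, adjusted p = 0.00371). Hoxc11 had a log2 change of -0.48 (SE 0.249, adjusted p = 0.912), with an interval of -0.97 to 0.01. It was the HoxC gene whose groups did not overlap in CPM, lower in 3 of 3 knockout libraries than in any put-back library, where 10.7% of all genes separated. The estimates of the other genes ran from -0.09 for Hoxc5 to 1.04 for Hoxc12 (interval -0.08 to 2.16). Without both replicate 1 libraries of this line 0 of 9 were again called, among 0.658% of all genes, and Hoxc12 came to 0.44 (SE 0.35).

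Between the lines, the knockout groups differed in 2 of the 9 HoxC genes, where 10.5% of all genes tested were called. Hoxc6 was higher in Fadd/Mlkl knockout (log2 change 1.55, SE 0.339, adjusted p = 0.0149) in 3 of 3 libraries. Hoxc10 was lower (-0.86, SE 0.246, adjusted p = 0.0478), also without overlap. Hoxc4 did not overlap in CPM either (log2 change 0.71, SE 0.279, adjusted p = 0.141), giving 3 of 9 genes against 27.8% of all genes. Hoxc11 differed by 0.28 (SE 0.249, adjusted p = 0.561, interval -0.21 to 0.77). The Hoxc6 call was lost without replicate 1 of Fadd/Mlkl knockout (1.15, adjusted p = 0.0503) and without replicate 2 of Casp8/Mlkl knockout (1.60, adjusted p = 0.056), and both calls were lost in a fit on these 2 groups alone (adjusted p = 0.0709 and 0.158). The Hoxc10 call was also lost without 10 of the 12 libraries in turn, with adjusted p from 0.0581 to 0.188.

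The same comparison without both replicate 1 libraries of the Casp8 line called 5 of 9 HoxC genes, where 19.6% of all genes were called. Hoxc13 was higher in Fadd/Mlkl knockout by 2.08 (SE 0.227, adjusted p = 0.000361), against 1.00 (SE 0.628, adjusted p = 0.372) with all libraries. Hoxc12 was higher by 1.23 (SE 0.32, adjusted p = 0.0262), against 0.17 with all libraries. Hoxc4 was higher by 1.02 (SE 0.246, adjusted p = 0.019). Hoxc6 and Hoxc10 kept their directions, at 1.34 (adjusted p = 0.021) and -1.08 (adjusted p = 0.00498). Those libraries were left out after their Hox values were seen. In Casp8/Mlkl knockout Hoxc13, Hoxc12 and Hoxc4 were highest in replicate 1, so leaving it out raises their differences by the choice. The added calls are therefore a description, and no pattern along the cluster is read from them.

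With the genes put back, Fadd put back against Casp8 put back called 1 of the 8 HoxC genes other than Hoxc11, where 6.34% of all genes were called. Hoxc11 is left out of the counts in this comparison, since its 0 counts with Fadd put back chose the set. The gene called was Hoxc6, higher with Fadd put back by 1.38 (SE 0.338, adjusted p = 0.0366). The Hoxc6 call was lost without 8 of the 12 libraries in turn (adjusted p 0.0558 to 0.118), among them each library of both groups. Hoxc12 was higher by 2.17 (SE 0.583, adjusted p = 0.0517), and DESeq2 (adjusted p = 0.00311), limma-voom (adjusted p = 0.0333) and a replicate block over all libraries (adjusted p = 0.0125) called it. Hoxc12, Hoxc6, Hoxc5 and Hoxc4 were higher in all 3 libraries than in any with Casp8 put back, which is 4 of these 8 genes, where 26.9% of all genes separated.

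Without both replicate 1 libraries of the Casp8 line, 4 of the 8 were called in that comparison, where 18.5% of all genes were called. Higher with Fadd put back were Hoxc13 (1.51, SE 0.221, adjusted p = 0.00227), Hoxc12 (2.64, SE 0.335, adjusted p = 0.00117), Hoxc6 (1.21, SE 0.329, adjusted p = 0.0333) and Hoxc4 (0.84, SE 0.243, adjusted p = 0.0433). For Hotair the log2 change was -2.06 (SE 0.661, adjusted p = 0.0959) with all libraries and -2.39 (SE 0.389, adjusted p = 0.00381) without those libraries. Hoxc13 and Hoxc12 were highest and Hotair lowest in replicate 1 of Casp8 put back, which was left out after the values were seen. These added calls are therefore a description.

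**Figure D3:**
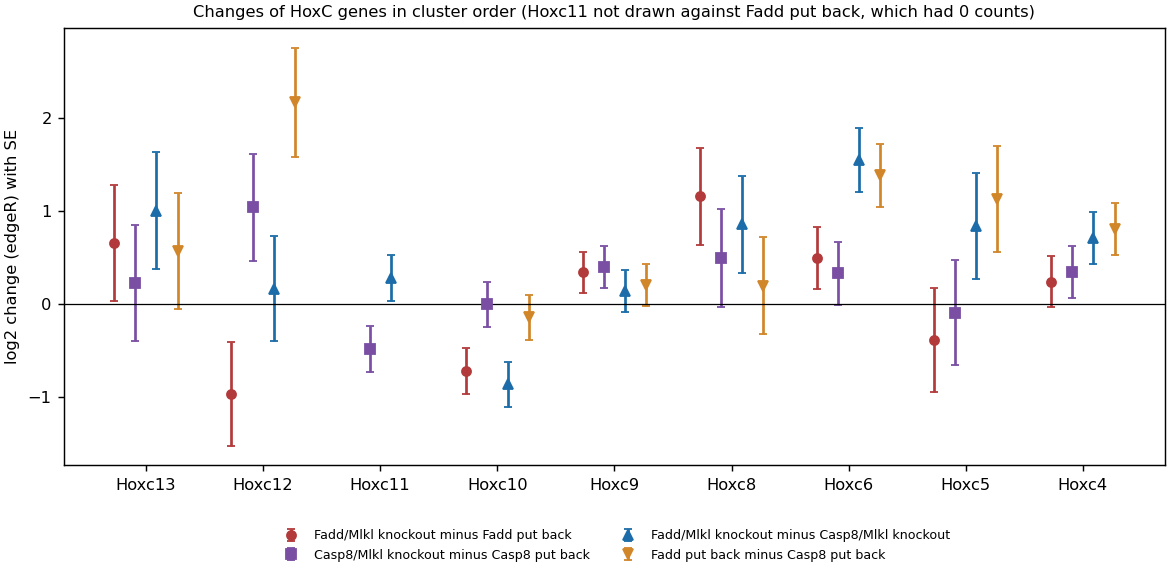
Log2 changes (points) with their standard errors (bars) of the 9 HoxC genes in 4 comparisons, from the edgeR model over all 12 libraries. Hoxc6 lies above 0 in both comparisons between the lines (1.55 and 1.38), and Hoxc11 is not drawn against Fadd put back, where it had 0 counts.

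The difference between the changes of the 2 lines was called for 0.842% of all genes, with Hoxc11 among them by its choice. Of the 8 others, 0 were called by edgeR, DESeq2 or limma-voom, and 1, Hoxc12, had an unadjusted p under 0.05. Hoxc12 had the largest difference (-2.0, SE 0.8, adjusted p = 0.552), followed by Hoxc10 (-0.72, SE 0.346, adjusted p = 0.743). The intervals of these differences were -3.57 to -0.43 for Hoxc12 and -1.40 to -0.04 for Hoxc10. The intervals use a normal quantile and are narrower than the test. For Hoxc10 the unadjusted edgeR p was 0.0615, so its interval does not show a difference from 0. Median log2 changes of the 9 genes were 0.34 in the Fadd line and 0.33 in the Casp8 line. Between the knockout groups the median was 0.71, and between the put-back groups it was 0.57. Medians of all genes lay within 0.01 of 0 in these comparisons. The medians of the Fadd line and between the put-back groups include Hoxc11, whose 0 counts chose the set, and are a description only. On the deposited TPM scale the median of all genes shifted by -0.11 in the Fadd line and by -0.18 between the knockout groups, so small changes of TPM are read relative to those values.

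As a share of the HoxC TPM of a library, Hoxc11 made up 12.1% to 18.6% in Fadd/Mlkl knockout, 0 with Fadd put back, 15.5% to 17.9% in Casp8/Mlkl knockout and 23.9% to 27.2% with Casp8 put back. The share of Hoxc6 ran from 20.6% to 35.0% in the Fadd line and from 7.96% to 16.7% in the Casp8 line. The ranges of the 2 lines did not overlap.

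**Figure D4:**
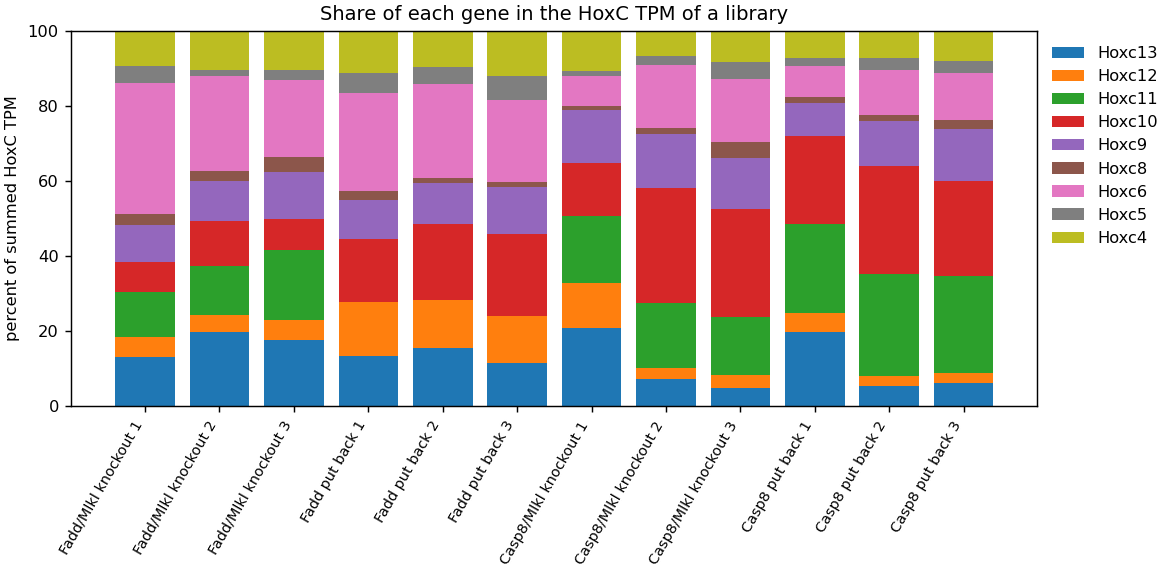
Share of each of the 9 genes in the summed HoxC TPM of each of the 12 libraries, stacked in cluster order from Hoxc13 at the bottom. The Hoxc11 band is absent in the 3 libraries with Fadd put back and widest with Casp8 put back (23.9% to 27.2%), and the Hoxc13 band is wide in replicate 1 of both Casp8-line groups.

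Across the 12 libraries the genes whose log2 CPM was most like that of Hoxc11 were Hoxa11os (Pearson's r = 0.989), Hoxa11 (0.986), Nlrx1 (0.943), Pax9 (0.919) and Tmem74 (0.895). The 12 libraries come from 2 lines and 4 groups, and these values are a description of genes chosen for their likeness. Each r of Hoxc11 includes the libraries with Fadd put back, whose 0 counts chose the set, and is a description only. Within the cluster Hoxc11 had r of 0.69 with Hotair, -0.68 with Hoxc12 and -0.18 with Hoxc10. Hoxc13 had r of 0.73 with Hoxc12, 0.77 with Hoxc4 and -0.80 with Hoxc10. Hoxc11 aside, the genes of the cluster thus did not move as a single block, and Hoxc10 ran against Hoxc13 and Hoxc4 (-0.78).

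Hoxa11, the paralog of Hoxc11 on chromosome 6, had 6.0, 6.62 and 6.98 TPM in Fadd/Mlkl knockout and 1.01, 0.60 and 0.70 with Fadd put back. The Casp8 line had 6.52, 6.35 and 6.78 TPM in the knockout and 12.33, 8.51 and 8.63 with Casp8 put back. It was higher in Fadd/Mlkl knockout than with Fadd put back by 3.22 on the log2 scale (SE 0.232, adjusted p = 5.78e-05), and its knockout and put-back groups in the Casp8 line separated in the other direction (-0.57, SE 0.211, adjusted p = 0.724). The difference between the 2 lines was 3.79 (SE 0.31, adjusted p = 0.00021). Hoxa11os is transcribed from the opposite strand of Hoxa11, and without the strand setting their reads cannot be told apart. Hoxd11 had 1 count in Fadd/Mlkl knockout and 0 in the other 3 groups.

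Of 10 listed paralogs of the posterior HoxC genes, 5 had enough counts to be tested, and the untested ones were all HoxD genes. In the Fadd line Hoxa11 and Hoxa13, which patterns digits (2.66, SE 0.578, adjusted p = 0.0498, not called by limma-voom), rose in the knockout and 0 fell, with a list median of 0.33 beside 0.00 for all genes. Of all genes edgeR called 1.52% in the Fadd line, 0.0061% in the Casp8 line, 10.5% between the knockout groups and 6.34% between the put-back groups. In the Casp8 line 0 of 5 were called by edgeR, DESeq2 or limma-voom, and the median was -0.47. There 2 had an unadjusted p under 0.05, against 5.67% of all genes. Between the knockout groups 0 were called by edgeR or DESeq2 and 1 by limma-voom, and the median was 0.46. An unadjusted p under 0.05 was found there for 1, against 24.5% of all genes. Between the put-back groups Hoxb9 was higher (7.31, SE 1.82, adjusted p = 0.0389) and Hoxa11 lower with Fadd put back (-3.62, adjusted p = 3.73e-05), with a median of -0.34. DESeq2 did not call Hoxb9, one of the genes in which replicate 1 of the Casp8 line stood apart.

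Hox proteins bind DNA with PBX, MEIS and PKNOX partners, and all 9 listed cofactors were tested. Meis1 was lower in Fadd/Mlkl knockout than in Casp8/Mlkl knockout (-2.44, SE 0.273, adjusted p = 0.000387), with group means of 0.183 and 1.09 TPM. It was also lower with Fadd put back than with Casp8 put back (-1.38, SE 0.263, adjusted p = 0.0132), where Pknox2 was higher (1.85, SE 0.366, adjusted p = 0.0157). Within the lines edgeR and limma-voom called 0 of the 9, and DESeq2 called 1 in each line, where it called 697 and 143 of all 16396 genes. In each line 1 had an unadjusted p under 0.05, against 10.3% and 5.67% of all genes. The medians of the list were 0.13, 0.01, 0.04 and 0.36 in the Fadd line, the Casp8 line, between the knockout groups and between the put-back groups.

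Polycomb complexes hold Hox clusters silent and Trithorax proteins keep them active. Of 27 Polycomb genes and 12 Trithorax genes, all tested, edgeR called 0 in any comparison and limma-voom called 0. Unadjusted p-values under 0.05 were found for 1, 1, 7 and 2 Polycomb genes and for 1, 2, 1 and 2 Trithorax genes in the same order of comparisons, where 10.3%, 5.67%, 24.5% and 21.1% of all genes had one. DESeq2 called 2 Polycomb genes between the knockout groups, 1 between the put-back groups, and 1 Trithorax gene in the Fadd line. In these comparisons it called 2753, 2058 and 697 of all 16396 genes. Polycomb medians ran from -0.02 to 0.16 and Trithorax medians from -0.18 to 0.17.

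Of 16 genes that pattern limbs and body axis, 10 were tested. Pitx1, which specifies the hindlimb, was present in all groups, at 13.4 ± 0.573 to 23.6 ± 2.74 TPM (SD, n = 3), while the forelimb gene Tbx5 had a mean of at most 0.00667 TPM in any group. Isl1, another hindlimb gene, was higher in Fadd/Mlkl knockout than in Casp8/Mlkl knockout (5.49, SE 0.84, adjusted p = 0.00412). Tbx4 and Lmx1b, a hindlimb gene and a gene of the dorsal limb, had 0 counts in Fadd/Mlkl knockout and were called lower there (edgeR adjusted p = 0.0278 and 0.0242). Their Casp8/Mlkl knockout means were 0.65 ± 0.556 and 0.46 ± 0.391 TPM, and Tbx4 had 1 count in replicate 1 against 202 and 146 in the others. Between the put-back groups Isl1 and En1, a gene of the ventral limb, were higher with Fadd put back (edgeR adjusted p = 0.0285 and 0.0222) and Tbx18 lower (-1.22, SE 0.239, adjusted p = 0.0152). Within the lines edgeR called 0 of 10, DESeq2 called 3 in the Fadd line and 2 in the Casp8 line, and limma-voom 1 and 0. Over all 16396 genes tested DESeq2 called 697 and 143, and limma-voom 200 and 1. An unadjusted p under 0.05 was found for 5 and 4 of the 10, against 10.3% and 5.67% of all genes. The list medians were 0.10, 0.29, -0.13 and -0.40 in the 4 comparisons.

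The 3 nearest protein-coding genes on each side of the cluster, Calcoco1, Atp5g2 and Atf7 on the left and Smug1, Cbx5 and Hnrnpa1 on the right, lie 116 kb or more from its ends. None was called in any comparison: edgeR, DESeq2 and limma-voom called 0 of 6, and 0 had an unadjusted p under 0.05. Over all genes edgeR called 0.0061% to 10.5% by comparison, and 5.67% to 24.5% had an unadjusted p under 0.05. With so few genes, 0 of 6 does not show that these genes were unchanged. In the Fadd line their log2 changes ran from 0.08 for Hnrnpa1 to 0.66 for Atf7, with a median of 0.26.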

How the data were processed

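RNA of 12 fibroblast cultures was analysed, 3 in each of 4 groups given by the titles of the samples. Per the labels' protocols, libraries came from total RNA with a stranded kit, and reads were aligned to mm10 with the GENCODE M22 annotation. The submitters' processing notes name Trim Galore 0.5.0, STAR 2.7.5a and RSEM. Per the file headers, the deposited tables hold expected counts (RSEM estimated counts, not normalized) and TPM per gene. The sources used here do not say whether counting used strand.

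The 92 spike-in rows, all at 0 counts, were left out. After rounding the expected counts to whole numbers and filtering with filterByExpr (minimum count 10), TMM scaling was applied and edgeR 4.0.16 (R 4.3.3) ran its quasi-likelihood test, with a mean for each group, over all libraries. P-values were adjusted by Benjamini-Hochberg across the 16396 genes kept, and a gene is called under 0.05. The standard error is the fitted change divided by the root of F, and intervals are the estimate ± 1.96 SE (95% by a normal quantile). With so few libraries these intervals are narrower than the F test implies, and the p-values decide. Changes are the first group named minus the second. TPM served for levels between genes. Alternatives used DESeq2 1.42.0, limma-voom (limma 3.58.1), other scalings, no filter, other samples in the fit, a replicate block and leaving out libraries.

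GENCODE M21, also on mm10, gave positions and sequences and matched 55094 of 55573 genes by identifier. A deposited table of expected counts for endogenous retrovirus regions was used for positions only: 0 of its 60983 regions lie in the cluster. Depth limits a library to 0.0527 to 0.0878 CPM at 3 counts, for counting error only.

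The 9 genes and all lists were chosen with earlier results of these data known. Named genes were all 9 members, the noncoding genes inside the cluster, the 3 nearest protein-coding genes on each side, the 5 genes most like Hoxc11, and up to 4 genes of each list, called ones first. Deviations of same-numbered libraries from their group means correlated within a line, at 0.66, 0.391 and 0.639 for Fadd and at 0.203, 0.305 and 0.127 for Casp8, and between the put-back groups, at 0.317, 0.161 and 0.243, but not between the knockout groups, at -0.252, 0.0711 and -0.371. The numbers were read as pairs where all 3 correlations were over 0.1. The main fit, with its SEs and p-values, did not use these pairs, which entered only the alternatives with a replicate block. The meaning of a replicate number is not in the labels.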

Additional observations from a re-analysis of the deposited data

Results flagged for a closer look

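Hoxc11 drew attention because its order in the Fadd line is the opposite of that in the Casp8 line. It was at least 375-fold higher in Fadd/Mlkl knockout than with Fadd put back, where all 3 libraries had 0 counts. In the Casp8 line all 3 knockout libraries (364, 267 and 220 counts) lay below all 3 put-back libraries (495, 568 and 460 counts) once scaled for depth. The gene was chosen for its 0 counts with Fadd put back. A call of the Fadd-line change, or of the difference between the lines, follows from that choice and is a description only. The Casp8-line order was not used for the choice. There the log2 change was -0.48 (SE 0.249, edgeR adjusted p = 0.912), and 10.7% of all genes separated in CPM.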

How the results depend on the processing

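The count of HoxC genes called was 1 in the Fadd line, 0 in the Casp8 line and 1 for the difference between the lines under all alternatives run, leaving out each library included; both 1s are Hoxc11, which its choice fixes, so they say nothing of stability. Between the knockout groups it went from 2 to 1 with upper-quartile scaling, with limma-voom and with no filter on low counts, to 0 with the libraries of the compared groups only, and to 5 without both replicate 1 libraries of the Casp8 line; leaving out each library gave 0 to 4. Between the put-back groups, Hoxc11 included, it went from 2 to 3 with limma-voom, with no filter and with the compared groups only, to 4 with DESeq2 and to 5 without both replicate 1 libraries, and leaving out each library gave 1 to 3. The number of all genes called also moved, from 1718 between the knockout groups. It was 1699 with upper-quartile scaling, 1423 with limma-voom, 1841 with no filter, 1046 with the compared groups only and 3305 without both replicate 1 libraries. Between the put-back groups 1039 became 820, 1121 and 797 with limma-voom, no filter and the compared groups only. It became 2058 with DESeq2 and 3118 without both replicate 1 libraries. Leaving out each library, the number of all genes called ran from 829 to 2558 between the knockout groups. Between the put-back groups it ran from 301 to 2251. The 4 HoxC genes between the knockout groups were reached without Casp8/Mlkl knockout replicate 1, with Hoxc13 (2.08, edgeR adjusted p = 0.0315) and Hoxc4 (1.02, adjusted p = 0.0257) added. That fit called 2558 of the 16956 genes it tested. Replicate numbers as a block within each line gave 1 gene in the Fadd line, 0 in the Casp8 line and 1 for the difference. Of all genes that fit called 444, 6 and 239, against 250, 1 and 138 without a block. That replicate block was not applied between the lines, since each block lies in 1 line. A replicate block over all libraries gave 2 between the knockout groups and 3 between the put-back groups, and changed no call other than that of Hoxc12. Of all genes it called 2050 and 1534 in these comparisons. The cause of these changes was not tested.

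Of the log2 changes with a test, 516 kept direction and side of the threshold, 25 lost the call, 21 gained one and 28 changed sign. In the Casp8 line Hoxc10 (0.00) became -0.057 with limma-voom, -0.003 with no filter, -0.022 and -0.041 with a replicate block over all libraries and by line, and -0.012 with the compared groups only, and Hoxc5 (-0.09) became 0.157 without both replicate 1 libraries. Leaving out each library in turn, the Casp8-line changes ran from -0.854 to 1.167 for Hoxc13, -0.027 to 1.511 for Hoxc12, -0.169 to 0.218 for Hoxc10, -0.334 to 0.811 for Hoxc8, -0.906 to 0.301 for Hoxc5 and -0.983 to 0.018 for Hotair. Between the knockout groups Hoxc12 ran from -0.209 to 1.233, and between the put-back groups Hoxc8 from -0.256 to 0.408. Hoxc8, Hoxc12 and Hotair had the fewest counts and SEs of 0.521 or more in the main fit. Hoxc13 and Hoxc5 had more counts, and their SEs were also wide, at 0.624 or more and 0.559 or more.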
